A study of Mus musculus with 6 samples.

Results

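The genes described here encode 9 transcription factors that direct the myeloid blood lineage: Spi1 (PU.1), Cebpa, Cebpb, Cebpd, Maf, Runx1, Runx3, Zeb2 and Id3. A probe set, a group of probes summed into 1 value, was taken for a member when the probe annotation gave it that gene symbol and no other. Each of the 9 members had exactly 1 such probe set, so 9 of the 19938 genes measured this way are described. The values came from macrophages sorted out of regenerating mouse muscle, 2 days after the tibialis anterior had been injured with cardiotoxin, which is a venom protein that destroys muscle fibres. CD45-positive blood-lineage cells were taken with magnetic beads and sorted into a Ly6C- F4/80high and a Ly6C+ F4/80low subset. Both subsets were collected from each of 3 mice, giving 6 expression arrays with 3 per subset. All mice were of the strain B6.129P2-Lyzstm1(cre)Ifo/J, which carries Cre at the lysozyme locus that myeloid cells express. That allele was shared by both subsets, no other allele is named, and the sources used here do not give the age of the animals. The comparison asks how the subsets differ, here for the factors that set myeloid identity.

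PU.1 is an ETS-family factor that binds the enhancers of most macrophage genes and is required for the myeloid lineage, while C/EBP factors are basic leucine zipper proteins that act beside it in monocytes and granulocytes. RUNX factors bind DNA with their partner CBF beta and act earlier in blood formation as well as in lymphocytes, and c-MAF is linked to mature tissue macrophages and their exit from the cell cycle. ZEB2 is a zinc finger repressor, and ID3 binds E proteins and keeps them off DNA.

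The sorted cells carried macrophage transcripts in both subsets. All 10 macrophage markers checked, among them Adgre1, Csf1r and Cd68, lay above background on average in both subsets. The Ly6C- F4/80high cells had 6 of them higher and 2 lower (median 0.52), beside 19.5% higher and 14.3% lower among all genes. Summed linear levels were 25807 to 26627 on their arrays against 19154 to 20130 on the Ly6C+ F4/80low arrays. Adgre1 encodes F4/80, which the sort selected on, and it is among the 6 and in these sums. Background was set at 5.44 on the log2 scale, the level under which 95% of 1190 genes for smell and pheromone receptors lay, genes of sensory neurons. Across probe sets, which are no independent replicates, the correlation was 0.990 to 0.993 between arrays of 1 subset and 0.979 to 0.982 between arrays of different subsets. Every difference is on the log2 scale and is the Ly6C- F4/80high mean less the Ly6C+ F4/80low mean, with the standard error (SE) of the fit. A gene was called where its limma p, adjusted by Benjamini-Hochberg over all 19938 genes, was under 0.05. Probes differ in brightness, so the levels of different probe sets are not compared, and of the ratios of genes within an array only the change between subsets can be read. Arrays give no read depth, and precision is set by their number.

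Among the 9 factor genes 1 was higher in the Ly6C- F4/80high cells, 5 were lower and 3 were not called. Cebpa was the higher one, Cebpb, Cebpd, Runx1, Runx3 and Id3 were lower, and Spi1, Maf and Zeb2 were not called. Over all genes 33.8% were called, 19.5% of them higher and 14.3% lower as shares of all genes. The median difference of the members was -0.34, against -0.06 for all genes, and the median size was 0.67 against 0.19. All 9 members were above background on all 6 arrays. For 7 members the values of the subsets did not overlap, 1 higher and 6 lower. Over all genes the subsets did not overlap for 48.1%, with 24.4% higher and 23.6% lower. In a bulk sample, fewer cells of a type and less RNA per cell cannot be told apart.

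**Figure D1:**
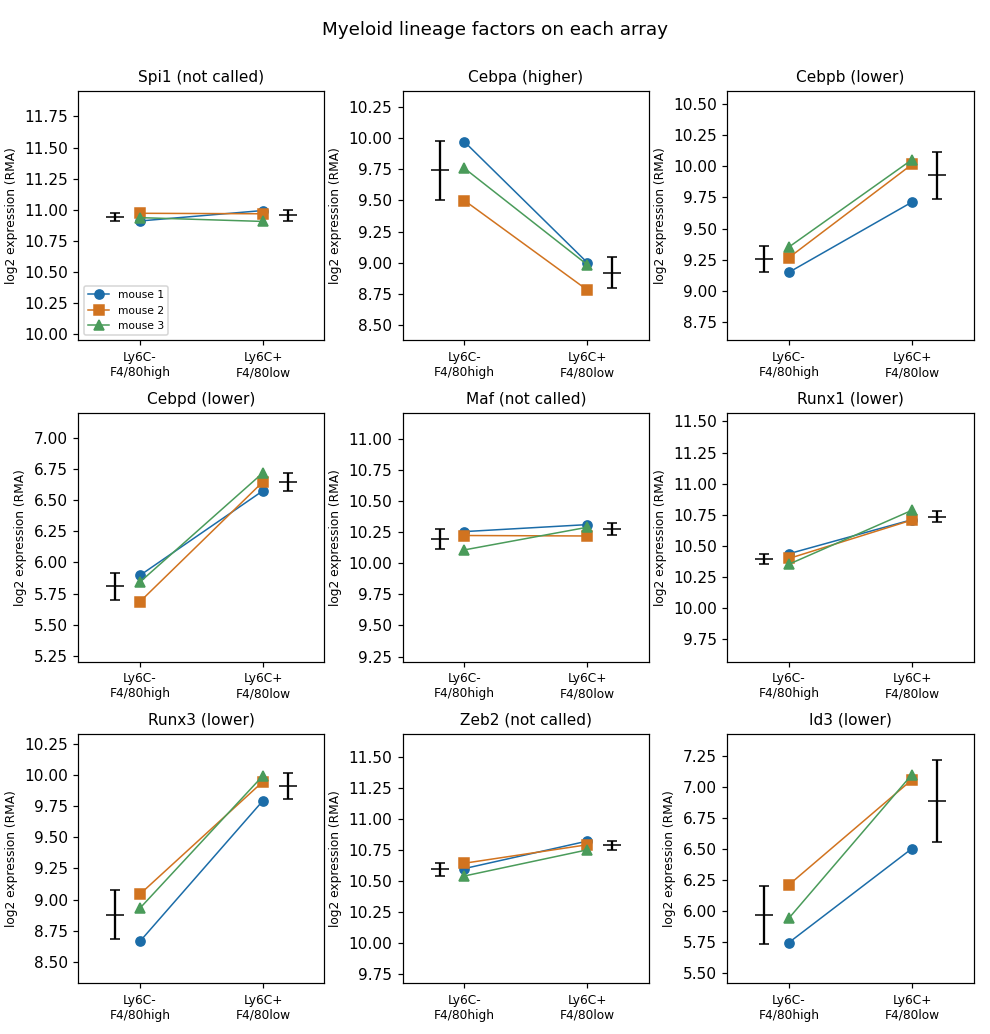
Log2 expression (RMA) of the 9 factor genes on each array, 1 panel per gene with an axis of the same length, Ly6C- F4/80high cells on the left and Ly6C+ F4/80low cells on the right. Coloured points joined by a line are the arrays of 1 mouse, black marks are the mean and SD of 3 arrays, and Spi1 lies between 10.91 and 10.99 on all 6 arrays while Cebpa and Cebpb slope in opposite directions.

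Spi1, the gene of PU.1, was not called, and its interval was narrow. It read 10.91, 10.97 and 10.94 in the Ly6C- F4/80high cells of mice 1, 2 and 3, against 10.99, 10.97 and 10.91 in the Ly6C+ F4/80low cells. The arrays of the subsets overlapped. The difference was -0.02 (SE 0.07, limma adjusted p = 0.875), with a 95% interval of -0.18 to 0.14, and its sign turned with a common median (0.0061) on every array. At least as large a difference was seen for 95.3% of all genes.

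Relatives of PU.1 in the ETS family were lower or not called. Of 15 measured ETS genes outside the members, 7 were lower, 8 were not called and none was higher (median -0.30), against 14.3% lower and 19.5% higher among all genes. That median is the difference of Spib, which was under background on all 6 arrays. Spic, a close relative of PU.1 known from red pulp macrophages that recycle iron, had the largest difference of the list. It read 5.96, 6.28 and 6.12 in the Ly6C- F4/80high cells and 7.71, 7.71 and 7.55 in the Ly6C+ F4/80low cells. The subsets did not overlap, and the difference was -1.53 (SE 0.10, limma adjusted p = 2.77e-06). Etv6, a repressor of the ETS family, differed by -0.61 (SE 0.07, limma adjusted p = 0.000155). Ets1, a factor best known from lymphocytes and endothelium, was not above background on any Ly6C- F4/80high array and was at least 1.33-fold lower there. The endothelial factor gene Erg was likewise under background on those 3 arrays and at least 1.12-fold lower.

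The C/EBP genes moved in opposite directions. Cebpa encodes C/EBP alpha, which is required for granulocyte and monocyte progenitors and slows cell division. It read 9.97, 9.50 and 9.76 in the Ly6C- F4/80high cells, against 9.0, 8.78 and 8.98 in the Ly6C+ F4/80low cells. Every Ly6C- F4/80high array lay above every Ly6C+ F4/80low array. The difference was 0.82 (SE 0.12, limma adjusted p = 0.000539), a 1.77-fold higher level, and came to 0.97, 0.72 and 0.78 in the 3 mice.

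Cebpb encodes C/EBP beta, a factor of the inflammatory response and of emergency granulocyte formation. It read 9.15, 9.27 and 9.35 in the Ly6C- F4/80high cells, against 9.71, 10.02 and 10.05 in the Ly6C+ F4/80low cells. All Ly6C- F4/80high arrays lay below the lowest Ly6C+ F4/80low array, and the difference of -0.67 (SE 0.10, limma adjusted p = 0.000797) made Cebpb 1.59-fold lower. Cebpd encodes C/EBP delta, which inflammatory signals induce quickly. It read 5.90, 5.68 and 5.84 in the Ly6C- F4/80high cells, close to the background of 5.44, and 6.58, 6.65 and 6.72 in the Ly6C+ F4/80low cells. The subsets did not overlap, and the difference was -0.84 (SE 0.08, limma adjusted p = 5.3e-05), a 1.79-fold lower level. Differences of this size or more were seen for 4.7% of all genes in the case of Cebpa, 7.67% for Cebpb and 4.54% for Cebpd.

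The balance within the family changed with the subset in all 3 mice. The log2 ratio of Cebpa to Cebpb on an array, whose sign has no meaning across probe sets, was 0.82, 0.23 and 0.41 in the Ly6C- F4/80high cells and -0.71, -1.24 and -1.07 in the Ly6C+ F4/80low cells. The ratio differed by 1.49 between the subsets, or 2.82-fold, and by 1.54, 1.47 and 1.48 in mice 1, 2 and 3. The log2 ratio of Cebpa to Cebpd differed by 1.66, or 3.17-fold. Neither ratio overlapped between the subsets. This followed from the single genes, Cebpa higher and Cebpb and Cebpd lower without overlap, so it is no separate result. The exact permutation test, two-sided, gave p = 0.1 for each of the 3 ratios tested within families and 0.1 after Benjamini-Hochberg adjustment, the smallest value that 3 arrays against 3 can give, so no ratio could pass 0.05.

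The other genes of the C/EBP list were split. Of 6 measured, 1 was higher, 3 were lower and 2 were not called (median -0.27), and without mouse 1 or without mouse 3 only 1 was lower. Cebpg encodes a short C/EBP that pairs with the others but lacks an activation domain, and it was the higher gene at 0.63 (SE 0.07, limma adjusted p = 0.000136). Trib1, a pseudokinase that marks C/EBP alpha for degradation, differed by -0.42 (SE 0.07, limma adjusted p = 0.00173). Ddit3, the stress-induced C/EBP also called CHOP, differed by -0.37 (SE 0.10, limma adjusted p = 0.0224) but lost its call without mouse 1 (limma adjusted p = 0.0826) or mouse 3 (limma adjusted p = 0.101). Cebpe, of the granulocyte lineage, differed by -0.26 with a 95% interval of -0.49 to -0.03 (limma adjusted p = 0.0819). Under 6 of 20 alternatives Cebpe was called, with quantile normalization (-0.40, limma adjusted p = 0.0122) among them.

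The promoter windows of Cebpa and Cebpb are shown because these genes of 1 family went in opposite directions. Both come from RefSeq on build GRCm38.p6 and run from 250 bases before to 50 bases after the annotated start, 5′ to 3′ on the strand of the gene. The Cebpa window is chr7:35119043-35119342 on the plus strand and the Cebpb window chr2:167688665-167688964 on the plus strand. They were searched on both strands for the letters GAGGAAGT and the shorter GAGGAA it contains (PU.1), TTGCGCAA and the looser TTGCNNAA that includes it (C/EBP), TGTGGT (RUNX), CAGGTG (ZEB and E proteins) and TGCTGA (MAF). Neither window held any of these letters, so all bases stand in lower case.
Cebpa: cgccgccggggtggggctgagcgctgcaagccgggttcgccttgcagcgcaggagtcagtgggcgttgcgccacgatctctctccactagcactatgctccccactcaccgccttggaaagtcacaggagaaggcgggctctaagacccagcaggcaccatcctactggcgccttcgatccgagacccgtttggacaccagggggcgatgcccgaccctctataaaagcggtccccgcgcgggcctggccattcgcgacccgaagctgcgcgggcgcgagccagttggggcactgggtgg
Cebpb: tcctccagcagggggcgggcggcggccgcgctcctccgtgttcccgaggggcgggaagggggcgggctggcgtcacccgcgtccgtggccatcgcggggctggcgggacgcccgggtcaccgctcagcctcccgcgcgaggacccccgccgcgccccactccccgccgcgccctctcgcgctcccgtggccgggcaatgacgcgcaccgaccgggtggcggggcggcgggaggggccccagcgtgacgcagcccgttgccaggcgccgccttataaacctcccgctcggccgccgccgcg
The Cebpa window was 67.3% G and C and the Cebpb window 80.7%, against a median of 52.7% over the 32851 windows in the RefSeq table. Of those windows 28.3% held GAGGAA, 10.8% TTGCNNAA, 16.8% TGTGGT, 20.2% CAGGTG and 19.5% TGCTGA, while GAGGAAGT was in 3.2% and TTGCGCAA in 0.183%. A match, or the lack of one, describes the letters of a window and not binding.

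Both RUNX members fell in the Ly6C- F4/80high subset. Runx3, known from cytotoxic T cells, NK cells and some dendritic cells, read 8.66, 9.04 and 8.93 in the Ly6C- F4/80high cells, against 9.79, 9.95 and 9.99 in the Ly6C+ F4/80low cells. The subsets did not overlap. The difference of -1.03 (SE 0.11, limma adjusted p = 6.19e-05), a 2.05-fold lower level, was the only called one of at least 2-fold among the members, while 1.02% of all genes were called and at least 2-fold lower and 1.91% at least 2-fold higher. Runx1, required for the first blood stem cells and active in most myeloid cells, read 10.44, 10.40 and 10.35 in the Ly6C- F4/80high cells and 10.71, 10.71 and 10.79 in the Ly6C+ F4/80low cells. Its values lay close together within each subset and did not overlap between them. The difference was -0.34 (SE 0.07, limma adjusted p = 0.00535), and without mouse 3 it was -0.29 and no longer called (limma adjusted p = 0.0752). The log2 ratio of Runx1 to Runx3 was higher in the Ly6C- F4/80high cells by 0.69 (0.86, 0.60 and 0.63 in the 3 mice), without overlap, at the smallest exact permutation p of 0.1.

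Runx3 is also a gene of lymphocytes and dendritic cells. Of 12 measured T and NK cell markers 3 were lower, 9 were not called and none was higher, beside 14.3% lower among all genes. Both subset means lay under background for 9 of the 12, so their sum is mostly background signal. The summed linear level was 301 to 352 on the Ly6C- F4/80high arrays against 360 to 416 on the Ly6C+ F4/80low arrays. Of the CD3 chains that define T cells, Cd3e was above background on all 6 arrays, at 5.58, 5.69 and 5.60 in the Ly6C- F4/80high cells and 6.18, 5.93 and 6.12 in the Ly6C+ F4/80low cells, a difference of -0.45 (SE 0.09, limma adjusted p = 0.00287). Cd3d and Cd3g were under background on all 6 arrays. The other lower markers were Thy1 at -0.44 (limma adjusted p = 0.00961) and Nkg7 at -0.42 (limma adjusted p = 0.0104). For Nkg7 both subset means lay under background. Of 10 dendritic cell markers 6 were lower and 1, Itgax, was higher, beside 19.5% higher among all genes. Their sums were 606 to 631 on the Ly6C- F4/80high arrays against 736 to 777 on the Ly6C+ F4/80low arrays. Both subset means lay under background for 3 of the 10, the lower Dpp4 and the uncalled Xcr1 and Clec9a, and Zbtb46 was not called either. Flt3, a defining receptor of dendritic cells, was under background on all Ly6C- F4/80high arrays and at 6.01, 5.75 and 5.91 on the Ly6C+ F4/80low arrays. The part of these cells in the Runx3 difference was not tested.

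The list of RUNX family, partner and corepressor genes held calls in both directions, all those named here in corepressor genes. Of 7 measured genes outside the members 1 was higher, 3 were lower and 3 were not called (median -0.17). Among all genes 19.5% were higher and 14.3% lower. Cbfb, the shared DNA-binding partner, differed by 0.05 (SE 0.08, limma adjusted p = 0.624), and its sign turned after quantile normalization (-0.05). The corepressor gene Cbfa2t3 read 7.22, 7.0 and 7.0 in the Ly6C- F4/80high cells and 8.12, 8.01 and 8.08 in the Ly6C+ F4/80low cells, a difference of -1.0 (SE 0.09, limma adjusted p = 1.98e-05). Its relative Cbfa2t2 was higher by 0.63 (SE 0.09, limma adjusted p = 0.000437). Tle3, a Groucho corepressor that RUNX proteins recruit, differed by -0.76 (SE 0.08, limma adjusted p = 8.55e-05).

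Each RUNX member has an upstream and a downstream RefSeq start, 129 kilobases apart in Runx1 and 31.9 in Runx3, and the array value does not tell them apart. The upstream windows are shown because both hold the same pair of RUNX letters. The Runx1 window is chr16:92826025-92826324 on the minus strand, the Runx3 window chr4:135120395-135120694 on the plus strand, and capitals mark the letters searched for.
Runx1 upstream: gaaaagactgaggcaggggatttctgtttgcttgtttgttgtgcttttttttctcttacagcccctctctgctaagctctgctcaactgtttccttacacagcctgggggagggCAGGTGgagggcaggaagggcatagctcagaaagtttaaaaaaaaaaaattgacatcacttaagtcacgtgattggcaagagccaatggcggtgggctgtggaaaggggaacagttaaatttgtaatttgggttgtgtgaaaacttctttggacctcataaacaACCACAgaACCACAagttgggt
Runx3 upstream: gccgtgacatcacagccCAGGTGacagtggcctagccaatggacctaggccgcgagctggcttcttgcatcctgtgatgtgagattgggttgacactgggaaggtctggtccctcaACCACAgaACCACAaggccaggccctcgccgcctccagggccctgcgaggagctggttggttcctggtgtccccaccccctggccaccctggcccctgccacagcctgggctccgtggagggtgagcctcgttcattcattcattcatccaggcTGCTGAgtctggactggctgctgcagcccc
In both, TGTGGT lay on the opposite strand (written ACCACA) as a pair of copies 2 bases apart, at 28 and 36 in Runx1 and at -134 and -126 in Runx3, counted from the annotated start. Such a repeat with any 2 bases between was in 7 of 32851 windows, or 0.0213%, and a window of the third family gene, Runx2, was among the 7. The repeat was looked for after the matches had been seen. Both windows also held CAGGTG, and Runx3 held TGCTGA. The downstream Runx1 window held 1 GAGGAA and the downstream Runx3 window none of the letters. The expression of Runx2 was not analysed here.

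Maf, the gene of c-MAF, was not called. It read 10.25, 10.22 and 10.11 in the Ly6C- F4/80high cells and 10.31, 10.22 and 10.29 in the Ly6C+ F4/80low cells, so the subsets overlapped. The difference was -0.08 (SE 0.08, limma adjusted p = 0.45), with a 95% interval of -0.25 to 0.09. Of 7 other MAF and BACH genes 3 were lower, 4 were not called and none was higher (median -0.19), with 5 lower after quantile or cyclic loess normalization. Bach2, a repressor best known from lymphocytes, read 6.79, 6.75 and 6.80 in the Ly6C- F4/80high cells and 7.59, 7.47 and 7.53 in the Ly6C+ F4/80low cells, a difference of -0.76 (SE 0.07, limma adjusted p = 4.33e-05). The heme-sensing repressor gene Bach1 differed by -0.37 (SE 0.07) and the small MAF gene Maff by -0.44 (SE 0.08), with limma adjusted p-values of 0.00321 and 0.00288.

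Id3 was lower and Zeb2 was not called. Id3 read 5.75, 6.21 and 5.94 in the Ly6C- F4/80high cells, against 6.50, 7.06 and 7.10 in the Ly6C+ F4/80low cells. The subsets did not overlap, though the values spread more than those of any other member within the Ly6C+ F4/80low cells (SD 0.33, n = 3). The difference was -0.92 (SE 0.16, limma adjusted p = 0.00188), 1.89-fold lower, and -0.75, -0.84 and -1.15 in the 3 mice. Id1, a relative that also blocks E proteins, read 6.34, 5.99 and 5.97 in the Ly6C- F4/80high cells and 7.19, 6.98 and 7.22 in the Ly6C+ F4/80low cells, a difference of -1.03 (SE 0.11, limma adjusted p = 8.93e-05). Id2, the relative used by dendritic and innate lymphoid cells, differed by 0.17 with a 95% interval of -0.08 to 0.41 (limma adjusted p = 0.26).

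Id1 and Id3 are also genes of endothelium, and some endothelial markers moved with them. Cdh5, the gene of VE-cadherin, read 6.45, 6.26 and 6.23 in the Ly6C- F4/80high cells and 7.80, 7.97 and 7.68 in the Ly6C+ F4/80low cells. It is also counted below among the Kupffer cell genes linked to ID3. Pecam1 differed by -0.82 (SE 0.08, limma adjusted p = 4.51e-05), while the endothelial receptor gene Kdr differed by 0.11 (SE 0.13, limma adjusted p = 0.53). Of 14 muscle, fibroblast and endothelial markers 8 were lower and none higher, beside 14.3% lower among all genes. Among these 8, Pdgfra, Dcn and Myog were under background on all Ly6C- F4/80high arrays. Summed linear levels of the 14 were 837 to 909 on the Ly6C- F4/80high arrays against 1125 to 1223 on the Ly6C+ F4/80low arrays. The part of such cells in the Id3 difference was not tested.

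Zeb2 read 10.60, 10.64 and 10.54 in the Ly6C- F4/80high cells and 10.82, 10.79 and 10.75 in the Ly6C+ F4/80low cells. The arrays did not overlap, but the difference of -0.19 (SE 0.07, 95% interval -0.36 to -0.03) missed the threshold at a limma adjusted p of 0.0659. It was called after cyclic loess normalization at -0.25 (limma adjusted p = 0.0269), and with unchanged size under a trended robust prior (0.0164) or without the 25% (0.0432) or 50% (0.0261) of genes of lowest mean. Its relative Zeb1 exceeded background on all Ly6C+ F4/80low arrays but on 1 Ly6C- F4/80high array, and differed by -0.54 (SE 0.09, limma adjusted p = 0.00145). Tcf12, an E protein that ID proteins bind, was higher by 0.39 (SE 0.07, limma adjusted p = 0.00264). In the list of 9 ZEB, ID and E protein genes outside the members 1 was higher, 2 were lower and 6 were not called (median 0.14).

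The Id3 promoter window is shown because it held the PU.1 letters 3 times, the most of the 11 windows that RefSeq gives for 6 of the 9 members. It is chr4:136143572-136143871 on the plus strand of GRCm38.p6, and capitals mark GAGGAA on the opposite strand (written TTCCTC).
Id3: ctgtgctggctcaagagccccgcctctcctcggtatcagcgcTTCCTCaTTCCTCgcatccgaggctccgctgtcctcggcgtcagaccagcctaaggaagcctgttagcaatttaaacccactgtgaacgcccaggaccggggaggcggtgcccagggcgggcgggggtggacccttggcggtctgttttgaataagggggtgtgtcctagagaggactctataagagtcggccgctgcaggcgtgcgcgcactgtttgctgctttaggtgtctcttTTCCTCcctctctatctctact
The copies lay at -208, -201 and 28 from the annotated start, the first pair 1 base apart, a spacing that 19 of 32851 windows, or 0.0578%, shared. This spacing, too, was looked for after the matches had been seen. GAGGAA was in 6 of the 11 member windows, against 28.3% of all windows, and 4 of these 6 were windows of Zeb2, of which 2 overlap and share 1 copy.

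**Figure D2:**
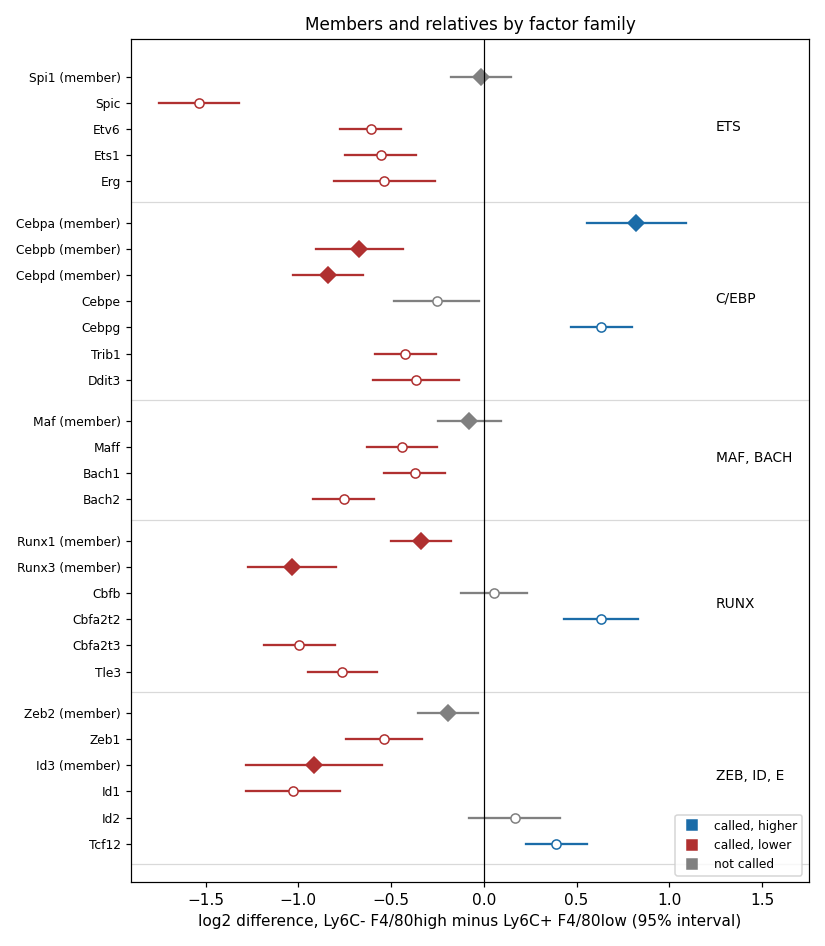
Log2 difference, Ly6C- F4/80high minus Ly6C+ F4/80low, with its 95% interval for the 9 members (filled diamonds) and named relatives (open circles), grouped by factor family; blue is called higher, red called lower and grey not called. Cebpa and Cebpg lie to the right in the C/EBP family with Cebpb and Cebpd to the left, and Spic at -1.53 lies far from Spi1 at -0.02.

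Across the 6 factor lists, 70 distinct genes outside the members were measured, of which 7 were higher, 27 lower and 36 not called. The median difference was -0.17, against -0.06 for all genes, and 14.3% of all genes were lower. Without mouse 3 the lower count was 17. In the list of 26 other blood and macrophage factors 4 were higher, 9 lower and 13 not called, and without mouse 3 only 3 were lower. Mitf, a regulator of lysosome genes and of osteoclasts, was higher by 0.66 (SE 0.08, limma adjusted p = 0.000131), and Nr1h3, the oxysterol receptor LXR alpha, by 0.62 (SE 0.10, limma adjusted p = 0.000962). Nfil3, which lies upstream of Id2 in innate lymphoid cells, read 9.03, 9.26 and 9.23 in the Ly6C- F4/80high cells and 10.23, 10.53 and 10.67 in the Ly6C+ F4/80low cells, a difference of -1.30 (SE 0.12, limma adjusted p = 2.49e-05). Irf4, a factor of alternatively activated macrophages and dendritic cells, differed by -0.67 (SE 0.12, limma adjusted p = 0.00174). The partner of PU.1 Irf8 was higher by 0.29 (SE 0.09, limma adjusted p = 0.0284), a call lost under 9 of 20 alternatives, without mouse 1 (limma adjusted p = 0.127) or mouse 3 (limma adjusted p = 0.184) among them. The monocyte factor gene Klf4 differed by -0.17 (SE 0.10, limma adjusted p = 0.209). A call was made for Klf4 under 3 of 20 alternatives, at -0.28 (limma adjusted p = 0.0392) when mouse 1 lost its Ly6C+ F4/80low array.

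Genes that textbooks place under these factors were called in both directions in 5 of 6 lists. Over all genes 19.5% were called higher and 14.3% lower, so calls in both directions do not set these lists apart. Of 22 measured PU.1 targets 5 were higher, 8 lower and 9 not called (median -0.15), beside a Spi1 difference of -0.02. Without mouse 3 the counts were 1 higher and 5 lower, and without mouse 1 or mouse 2 they were 3 and 5. Fgr encodes a myeloid kinase of the SRC family and differed by -1.17 (SE 0.10, limma adjusted p = 1.47e-05) and Ncf4, a subunit of the phagocyte oxidase, by -0.99 (SE 0.08, limma adjusted p = 1.25e-05). Adgre1 encodes F4/80, which the sort selected on, so its higher level (0.73) is no finding. Csf1r, the receptor for the macrophage growth factor CSF1, differed by -0.18 with a 95% interval of -0.36 to -0.01 (limma adjusted p = 0.0995), and was called under 2 of 20 alternatives, a trended robust prior (limma adjusted p = 0.0325) and the test without the 50% of genes of lowest mean (limma adjusted p = 0.0482).

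Of 19 C/EBP targets 2 were higher, 8 lower and 9 not called (median -0.18), beside 19.5% higher and 14.3% lower among all genes. Both subset means lay under background for 3 of the 19, among them Ltf, whose difference is that median. Without mouse 1 or without mouse 2 only 1 was higher. The acute-phase gene Hp read 6.57, 6.54 and 6.16 in the Ly6C- F4/80high cells and 8.46, 8.44 and 8.38 in the Ly6C+ F4/80low cells, a difference of -2.0 (SE 0.11, limma adjusted p = 1.19e-06). The iron-binding lipocalin gene Lcn2 differed by -1.78 (SE 0.14, limma adjusted p = 9.9e-06). Arg1, the arginase gene of repair macrophages, went the other way and read 9.32, 9.42 and 9.73 in the Ly6C- F4/80high cells against 7.32, 8.32 and 8.73 in the Ly6C+ F4/80low cells. It was higher by 1.36 (SE 0.29, limma adjusted p = 0.00462), and not called under a trended robust prior (limma adjusted p = 0.0507). Of 10 neutrophil markers 3 were lower, 7 were not called and none was higher, and 5 had both subset means under background. Their summed linear level was 990 to 1012 on the Ly6C- F4/80high arrays against 1005 to 1060 on the Ly6C+ F4/80low arrays. The defining gene Ly6g and Cxcr2, both called lower, were under background on all 6 arrays. S100a9, under background on the Ly6C- F4/80high arrays alone, differed by -0.70 (SE 0.11, limma adjusted p = 0.000681). S100a8, above background on all 6 arrays, went the other way and was not called (0.30, SE 0.13, limma adjusted p = 0.0916). The lists share 5 genes, and the part of neutrophils in the C/EBP target counts was not tested.

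The tissue macrophage genes grouped here with Maf were mostly higher, beside a Maf difference of -0.08. Of 15 measured 10 were higher, 2 lower and 3 not called (median 0.95), against 19.5% higher among all genes. Folr2, a folate receptor of resident macrophages, read 10.72, 10.52 and 10.62 in the Ly6C- F4/80high cells and 8.44, 8.23 and 8.37 in the Ly6C+ F4/80low cells, and was higher by 2.28 (SE 0.09, limma adjusted p = 1.66e-07). Cd5l, a secreted scavenger protein, was under background on all 3 Ly6C+ F4/80low arrays and at least 3.89-fold higher in the Ly6C- F4/80high cells. Il10, an anti-inflammatory cytokine that c-MAF activates, was lower, at 9.83, 9.77 and 9.42 in the Ly6C- F4/80high cells and 10.36, 10.37 and 10.12 in the Ly6C+ F4/80low cells, a difference of -0.61 (SE 0.12, limma adjusted p = 0.00323). This list shares 4 genes with the macrophage markers, C1qa, C1qb, C1qc and Mertk, all higher.

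Of 11 RUNX targets 1 was higher, 2 lower and 8 not called, beside 19.5% higher and 14.3% lower among all genes. Both subset means lay under background for 6 of the 11. Without mouse 3 only 1 was lower and none higher. Itgal, the LFA-1 integrin chain, read 6.49, 6.59 and 6.50 in the Ly6C- F4/80high cells and 9.05, 8.89 and 9.09 in the Ly6C+ F4/80low cells, a difference of -2.48 (SE 0.08, limma adjusted p = 5.77e-08). Itgax, the gene of CD11c, was higher by 0.37 (SE 0.10, limma adjusted p = 0.0188), a call lost under 7 of 20 alternatives, without mouse 1 (limma adjusted p = 0.124) or mouse 3 (limma adjusted p = 0.0657) among them. The 14 Kupffer cell genes linked to ID3 were split, 4 higher, 3 lower and 7 not called (median 0.07). Both subset means lay under background for 4 of the 14. The list shares Cd5l, Folr2, Cd163, Timd4 and Hmox1 with the MAF list. Of 10 epithelial genes that ZEB proteins repress 2 were lower and 8 not called (median -0.19), beside 14.3% lower among all genes. The lower count was 1 without mouse 3 and 5 without mouse 2. Cdh1, the gene of E-cadherin, was under background on all Ly6C- F4/80high arrays and at least 1.17-fold lower there.

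**Figure D3:**
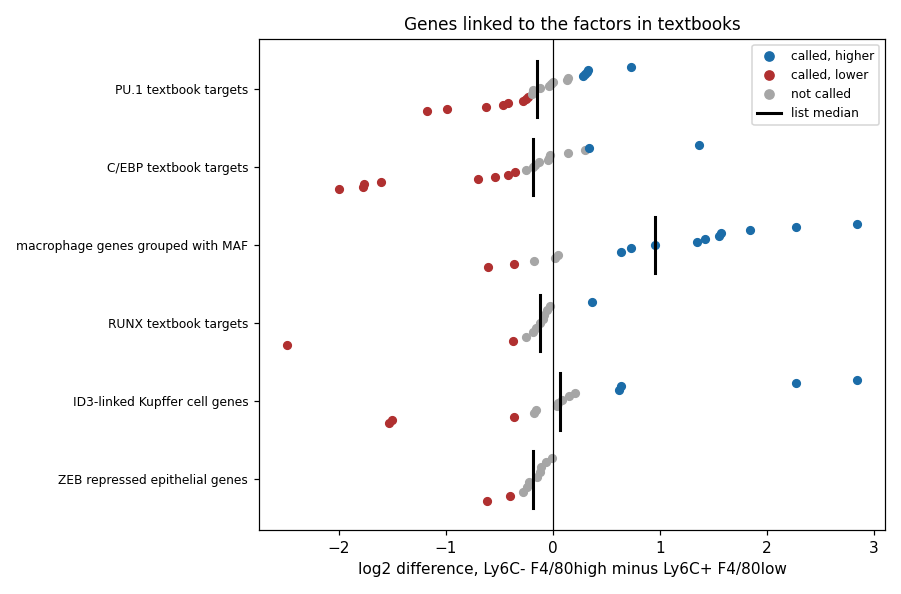
Log2 difference, Ly6C- F4/80high minus Ly6C+ F4/80low, of each gene in 6 lists of genes linked to the factors; points are genes, coloured blue where called higher, red where called lower and grey where not called, and black bars are list medians. The list of macrophage genes grouped with MAF lies furthest to the right with a median of 0.95, and the other medians lie between -0.19 and 0.07.

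The genes most like each member were sought among 11563 others above background, by the root mean square distance between centred values on the 6 arrays. Cebpb lay nearest to the arrestin-family gene Arrdc3 (distance 0.04 on the log2 scale, difference -0.69) and next to Pvr and to Plaur, the gene of the urokinase receptor. Cebpd lay nearest to Gfod1 (0.02, difference -0.85). Cebpa was followed by Dnajc18 (0.06, difference 0.75), Runx3 by the cystine transporter gene Slc7a11 (0.04, difference -1.08) and Id3 by Osm, the cytokine gene of oncostatin M (0.09, difference -1.07). Runx1 lay nearest to the choline transporter-like gene Slc44a2 (0.03), Spi1 to the GTPase gene Rac1 (0.01), Maf to Ccdc92 (0.01) and Zeb2 to Dlgap2 (0.01). No member had another member among its nearest 3 genes. With 6 arrays in 2 groups, such likeness rests mainly on the size of the difference, and it is a description of these arrays.

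**Figure D4:**
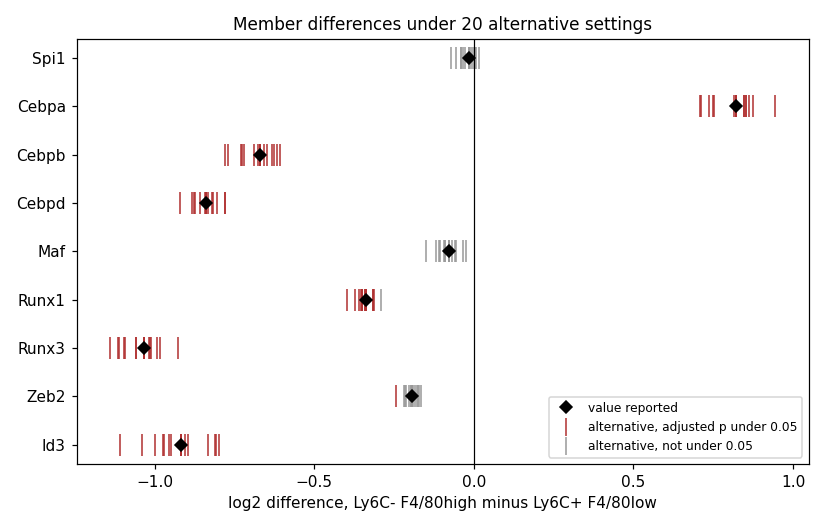
Log2 difference of each member, Ly6C- F4/80high minus Ly6C+ F4/80low, as reported (black diamonds) and under 20 alternative settings (bars, red where the adjusted p was under 0.05 and grey where not). Cebpa, Cebpb, Cebpd, Runx3 and Id3 keep their side of zero and their call in all 20, Runx1 in 19, Zeb2 is called in 4, and Spi1 and Maf in none.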

How the data were processed

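Total RNA of 6 sorted samples was profiled on Affymetrix expression arrays, with 150 ng amplified and labelled per array, per the labels' protocols. The authors deposited RMA expression in log2 units, per the submitters' processing notes for RMA; the unit was read from the range of the values, and no source used here states the settings of RMA. RMA compresses low signals. Array medians were 5.75 to 5.80 in the Ly6C- F4/80high samples and 5.84 to 5.85 in the Ly6C+ F4/80low samples.

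Of 35556 probe sets, 21789 had 1 symbol in the annotation given with the values, and each of 19938 symbols took its probe set of highest mean. Names were checked against RefSeq (GRCm38.p6). Cebpz, Runx2, Lck and Trac were on the lists and are not analysed here, and some other items are not reported here. Differences were fitted with limma 3.58.1 in R 4.3.3 (lmFit, eBayes, two-sided, no filter), and the fit was tested on simulated data. Folds are bounds where a subset had no array above background, its arrays then being set to that level. Named genes were all members, up to 4 called genes of each list by size (2 in each direction where both occur), and, whatever their result, genes that include Cebpe, Runx2, Cbfb, Zeb1, Id1, Id2, Irf8, Klf4 and Csf1r; not every one is described. Cell type markers were named after their values were seen. Members and lists were chosen with earlier results of these data known, and the background level likewise.

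By the labels each animal gave both subsets, and its number therefore pairs 2 arrays; deviations of paired arrays from their subset means correlated at 0.03, -0.08 and 0.09. As no paired test is stated in the sources, the block by mouse was an alternative, beside other scalings, filters, priors and leaving out arrays or mice.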

Additional observations from a re-analysis of the deposited data

How the results depend on the processing

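The calls of Cebpa, Cebpb, Cebpd, Runx3 and Id3 held under all 20 alternatives, with differences of 0.71 to 0.94 for Cebpa, -0.78 to -0.61 for Cebpb, -0.92 to -0.78 for Cebpd, -1.14 to -0.93 for Runx3 and -1.11 to -0.80 for Id3. With the mouse as a replicate block 6 members were called, as without it, and 33 of the 70 other factor genes (7 higher, 26 lower) against 34; the exact sign-flip test over 3 mice gave p = 0.25 for each ratio, the smallest it can give. Spi1 turned to 0.0061 with a common median and ranged from -0.0414 to 0.0025 with 1 array left out and from -0.0400 to 0.0173 with 1 mouse left out. Cbfb turned to -0.0488 after quantile and -0.0705 after cyclic loess normalization, and ranged from -0.0043 to 0.0866 with 1 array left out and from -0.0146 to 0.1071 with 1 mouse left out. Lower factor genes numbered 17 to 27 over the left-out arrays and mice, and all called genes 3998 (without mouse 3) to 6887 (mouse 2 without its Ly6C- F4/80high array), against 6748 with all arrays. Lower calls among all genes were 1321 without mouse 3, 1574 without mouse 1 and 1696 with all probe sets tested, against 2861. Several list counts moved by more than 1.5 times, beside those given with the lists. After quantile or cyclic loess normalization the PU.1 list had 3 higher genes, the RUNX list 0, and the MAF and BACH list 5 lower ones. The lower count of the epithelial list ranged from 1 without mouse 3 to 5 without mouse 2. The ZEB, ID and E protein list had 2 higher genes with a common median, a trended robust prior or without the 25% or 50% of genes of lowest mean, and 1 lower gene without that 50%, where the C/EBP targets had 5 lower ones. Without mouse 3 the other blood factors had 3 lower genes, against 9. The cause of these changes was not tested. The number of arrays limits every comparison.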

Other observations

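Mouse 1 gave the lowest of 3 values in both subsets for Cebpb, Runx3 and Id3 and the highest in both for Cebpa and Maf. For Cebpa in the Ly6C+ F4/80low cells mouse 3 was close to it (9.0 against 8.98). Other mice also kept a place in both subsets. Mouse 2 was lowest for Cebpa, and mouse 3 was highest for Cebpb and lowest for Zeb2. Over all genes the deviations of the 2 arrays of mouse 1 correlated at 0.03. Id3 read 5.75 in mouse 1 against 6.21 and 5.94 in mice 2 and 3 for the Ly6C- F4/80high cells, and 6.50 against 7.06 and 7.10 for the Ly6C+ F4/80low cells. Arg1 was also lowest in mouse 1, at 9.32 in the Ly6C- F4/80high cells and 7.32 in the Ly6C+ F4/80low cells. These orders were noticed in the data and were not tested.

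Of 7 B cell markers 2 were higher and none lower, beside 19.5% higher among all genes. Both subset means lay under background for 4 of the 7. Cd22, an inhibitory lectin best known from B cells, read 7.96, 7.96 and 7.67 in the Ly6C- F4/80high cells and 6.41, 6.56 and 6.50 in the Ly6C+ F4/80low cells, a difference of 1.38 (SE 0.10, limma adjusted p = 5.7e-06). Cd79b, a chain of the B cell receptor complex, was higher by 0.53 (SE 0.10, limma adjusted p = 0.00235). The B cell genes Ms4a1, Cd79a, Pax5 and Blk were not called, and Ms4a1 and Cd79a were under background on all 6 arrays. Lyz2, the lysozyme gene at whose locus the mice carry Cre, read 7.97, 7.97 and 7.93 in the Ly6C- F4/80high cells and 7.87, 7.80 and 7.78 in the Ly6C+ F4/80low cells and was not called (0.14, SE 0.07, limma adjusted p = 0.167).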
